A study of Mus musculus with 6 samples.

Results

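The genes described here are 10 genes of oxygen sensing and of the related collagen hydroxylases, among 56941 genes listed in the count table. They are the HIF subunits Hif1a and Arnt, the ubiquitin ligase subunit Vhl, the HIF prolyl hydroxylases Egln1, Egln2 and Egln3, the HIF asparagine hydroxylase Hif1an, and the collagen hydroxylases P4ha1, P4ha2 and Plod2. They were chosen by function and selected on results of these same samples, so their differences between the groups are given as a description, with standard errors and without p-values. All 10 were found in the table and all 10 passed the filter on low counts.

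RNA was sequenced from cultures labelled as CD8+ T cells of mouse (B6) spleen. In both groups the cells were activated for 3 days on plate-bound antibody to CD3 with antibody to CD28 and recombinant IL-2. One group of 3 samples received sphingosine-1-phosphate (S1P, a signalling lipid sensed by the receptor S1PR1 and its relatives) at 5 µM from 24 h of culture on, and the other group of 3 samples received vehicle. The labels give purified naive CD8+ T cells as the starting cells, the methods allow either purified naive T cells or whole spleen cells, and the labels name no difference in oxygen between the groups. The labels call the samples biological replicates and do not state that each came from a separate mouse, so the errors measure the spread between these samples.

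HIF is a transcription factor made of an oxygen-regulated alpha subunit and the constant partner ARNT. When oxygen is present, the EGLN (PHD) enzymes hydroxylate prolines of the alpha subunit, VHL binds the hydroxylated form, and the ubiquitin ligase around VHL sends it to the proteasome. HIF1AN, also called FIH, hydroxylates an asparagine that blocks binding of the coactivators p300 and CBP. All these enzymes, and the collagen prolyl and lysyl hydroxylases, use oxygen, iron and 2-oxoglutarate. The alpha subunit is controlled mainly as a protein, so a transcript count of Hif1a does not measure HIF activity. In T cells, HIF-1 is known for its role in glycolysis after activation, and several genes of its own control loop, among them EGLN1 and EGLN3, are known HIF targets.

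The vehicle samples held 13636095 to 17089831 counts and the S1P samples 12048880 to 17384084, and no pair of samples was a duplicate. S1P replicate 2 stood apart from its group: the chi-square per gene was 31.2 against S1P replicate 1 and 18.4 against S1P replicate 3, beside 5.98 between those and 3.81 to 3.97 among vehicle samples. The 6 genes called higher below were also called without it. The mitochondrial genome gave 7.80% of all counts in S1P replicate 2 and 4.10% to 4.93% elsewhere. Transcripts of other lymphocytes were present in libraries labelled as CD8+ T cells. Cd4 was between 186 and 223 CPM (the count scaled to a library of standard size with the TMM factors of edgeR) in vehicle and between 195 and 254 CPM in S1P samples. Cd40lg, the other CD4 T cell marker listed, was higher after S1P (14.4 ± 1.42 to 20.6 ± 3.10 CPM, SD, n = 3, log2 fold change 0.50, SE 0.13, adjusted p = 0.0134 by edgeR). It was called in 12 of the 14 other fits described below, and in 4 of the 6 that leave out 1 sample. The summed level of 4 B cell markers was between 370 and 459 CPM in vehicle and between 341 and 374 CPM in S1P samples, and 1 of the 4, Ms4a1, was lower. Ms4a1 was called in 12 of those 14 fits, and in 4 of the 6 that leave out 1 sample. The summed level of 5 T cell markers, 3 CD3 chains with Cd8a and Cd8b1, was between 814 and 940 CPM in vehicle and between 688 and 767 CPM in S1P samples, with Cd8a and Cd8b1 called lower. Among the CD3 chains, Cd3d (log2 fold change -0.28, SE 0.07) and Cd3g (-0.21, SE 0.07) missed the threshold with every S1P sample below every vehicle sample, and Cd3e overlapped. Per kilobase, Cd4 was at 45.2 ± 4.08 RPKM and Cd8a at 61.0 ± 6.84 RPKM in vehicle samples, while in S1P samples Cd4 was at 48.6 ± 7.02 and Cd8a at 38.3 ± 1.81 RPKM (SD, n = 3), so that Cd4 was above Cd8a in all 3. Fewer cells of a type and less RNA per cell cannot be told apart in such bulk samples, and the part of these differences in the results below was not tested.

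Across all genes, 13299 were tested with edgeR's quasi-likelihood test. A gene was called at a Benjamini-Hochberg adjusted p of at most 0.05 over all tested genes together with a log2 fold change beyond 0.3 in either direction. A large part of the transcriptome differed between the groups, with 23.1% of tested genes called, 12.7% called higher and 10.4% called lower. The samples of the groups did not overlap in 45.6% of tested genes. Of the 10 genes described here, 6 were called higher (Hif1a, Egln1, Egln3, P4ha1, P4ha2 and Plod2), 1 was called lower (Egln2), and 3 were not called (Arnt, Vhl and Hif1an). The S1P samples all lay above the vehicle samples for the 6 genes called higher and all below them for Egln2 and Hif1an, and they overlapped for Arnt and Vhl. Since the genes were picked with this comparison known, the counts are read as a description only. Their log2 fold changes ran from -0.31 to 2.55 with a median of 0.44, beside a median of 0.01 over all tested genes.

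**Figure D1:**
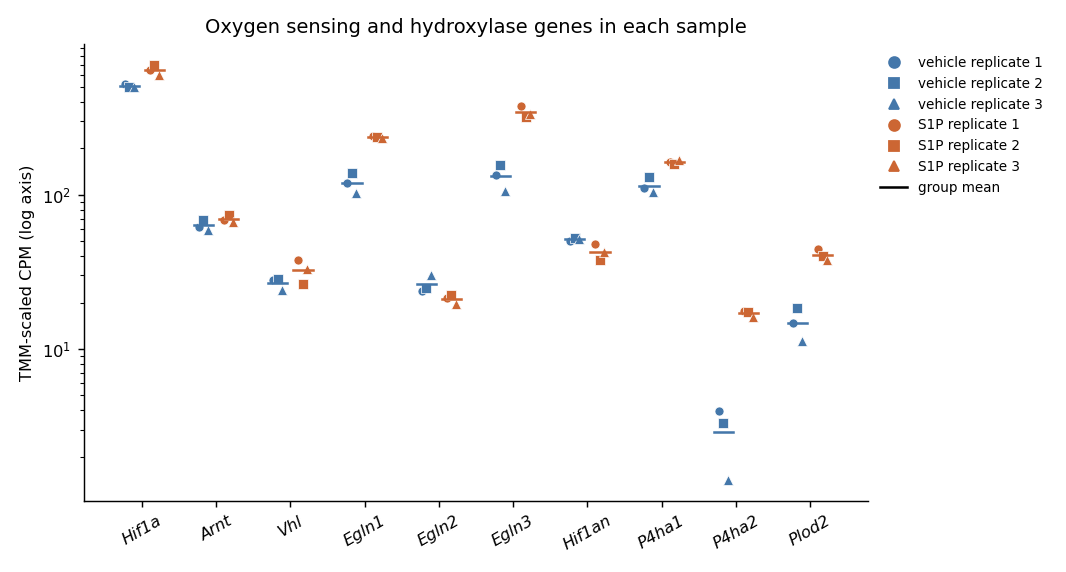
TMM-scaled CPM on a log axis for each of the 10 genes in each of the 6 samples, with vehicle in blue, S1P in orange, a symbol per replicate number and a line at each group's mean (n = 3). P4ha2 has the widest gap between the groups, 2.90 against 17.1 CPM, while Arnt and Vhl overlap.

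The promoters are shown first, because HIF binds DNA at a short core sequence. The window runs from 250 bases before the start of each gene's canonical GENCODE transcript over the first 50 bases of the transcript, on GRCm39. It was searched for ACGTG and GCGTG on both strands (CACGT and CACGC on the other strand), and overlapping matches were merged into 1. Matches were present in 8 of the 10 promoters, and Vhl and Hif1an had none. The stretch from the first to the last match before the start is printed 5′ to 3′ on the gene's strand for 7 of the 8 genes, with 10 bases on each side where the start allows it and the matches in capitals. The gene left out, Arnt, was not called and had 1 match, at -142 from the start.
P4ha2: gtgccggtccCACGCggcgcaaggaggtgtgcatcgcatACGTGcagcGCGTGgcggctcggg
Plod2: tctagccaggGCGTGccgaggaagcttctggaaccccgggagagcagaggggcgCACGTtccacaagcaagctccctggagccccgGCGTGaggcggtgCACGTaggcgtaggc
P4ha1: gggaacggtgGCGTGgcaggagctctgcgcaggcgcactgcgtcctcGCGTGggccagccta
Egln3: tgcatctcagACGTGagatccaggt
Egln1: ctacaaatcaCACGTGgaaccgacag
Hif1a: cacagacaagCACGTGagcggggcag
Egln2: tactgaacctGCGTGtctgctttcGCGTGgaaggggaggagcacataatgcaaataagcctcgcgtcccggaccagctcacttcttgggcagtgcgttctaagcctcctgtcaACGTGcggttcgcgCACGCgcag

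These stretches lie at chr11:53991633-53991695 (+ strand) for P4ha2, chr9:92424078-92424191 (+) for Plod2, chr10:59158945-59159006 (+) for P4ha1, chr12:54250875-54250899 (- strand) for Egln3, chr8:125677019-125677044 (-) for Egln1, chr12:73954496-73954521 (+) for Hif1a and chr7:26866253-26866388 (-) for Egln2. The whole windows of P4ha2 and Plod2 held 4 matches each, that of P4ha1 held 3 and that of Hif1a held 2. Egln1 and Egln3, which differed by more between the groups than P4ha1 and Hif1a, had 1 match each, and Egln2, the gene called lower, had the most with 5. At least 2 matches were found in 5 of the 10 promoters. The motif is common: 48.0% of 21770 promoters of protein-coding genes held at least 1 match and 20.5% held at least 2. Among promoters of tested genes 62.3% held a match and 29.9% held at least 2. The median GC content was 61% for the 10 promoters, 58.3% for those of tested genes and 54.3% for those of all protein-coding genes. The share with a match was 62.9% for genes called higher and 61.6% for genes called lower. A match is a run of letters and not a measured binding site, and a window without one says nothing of sites elsewhere.

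Hif1a encodes the oxygen-regulated HIF-1α subunit and lies at chr12:73948149-73996321 on GRCm39 (ENSMUSG00000021109). Its level was 522, 499 and 497 CPM in vehicle replicates 1, 2 and 3 and 647, 698 and 600 CPM in S1P replicates 1, 2 and 3. Every S1P sample was above every vehicle sample, and the lowest of them was 1.15-fold above the highest vehicle sample. The mean went from 506 ± 13.7 to 648 ± 49.1 CPM (SD, n = 3), a log2 fold change of 0.36 (SE 0.07). This is the smallest of the 6 increases and stands 2442nd from the highest of all tested genes. Per kilobase of exon, Hif1a was the most abundant of the 10 transcripts in vehicle samples, at 60.7 ± 1.64 RPKM. Of its exon bases, 8.33% lie under a gene of the opposite strand, Gm15283, and the strand setting of the counting is not given in the sources used here.

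Arnt encodes the constant beta subunit of the heterodimer (chr3:95341365-95404551, ENSMUSG00000015522). It was at 61.5, 69.2 and 59.5 CPM in vehicle replicates and at 68.3, 73.6 and 67.1 CPM in S1P replicates. The 2 lower S1P samples were within the range of the vehicle samples. The log2 fold change was 0.14 (SE 0.08), and leaving out 1 sample at a time gave 0.09 to 0.20, so Arnt was not called in any of the 14 other fits. Per kilobase, Hif1a transcript was 8.98 ± 0.78-fold above Arnt in vehicle samples and 10.4 ± 0.35-fold above it in S1P samples (SD, n = 3). With the length of the longest coding transcript these ratios were 5.57 ± 0.48 and 6.45 ± 0.22.

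Vhl encodes the subunit that recognises hydroxylated HIF alpha (chr6:113600920-113608599, ENSMUSG00000033933). Its level was 27.8, 28.6 and 24.2 CPM in vehicle replicates and 37.8, 26.2 and 33.0 CPM in S1P replicates. S1P replicates 1 and 3 were above all vehicle samples, and S1P replicate 2, the sample with the high mitochondrial share, was among them. The log2 fold change was 0.28 (SE 0.12). Without S1P replicate 2 it was 0.40 (SE 0.09) and Vhl was called higher, and it was not called in the other 13 fits. Among those 13, the fit without S1P replicate 1 gave 0.14. Of the 4 partners of VHL in the ligase, edgeR called 0, DESeq2 called 0, and 0 had an unadjusted p under 0.05. Elob and Eloc, the elongins that join VHL to the cullin, had log2 fold changes of -0.16 (SE 0.08, adjusted p = 0.166) and -0.15 (SE 0.08, adjusted p = 0.153). Rbx1, the RING subunit, was at -0.15 (SE 0.07, adjusted p = 0.138), with its S1P samples all below the vehicle samples. Cul2, the scaffold, was at 0.02 (SE 0.06, adjusted p = 0.819) and changed sign between fits.

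**Figure D2:**
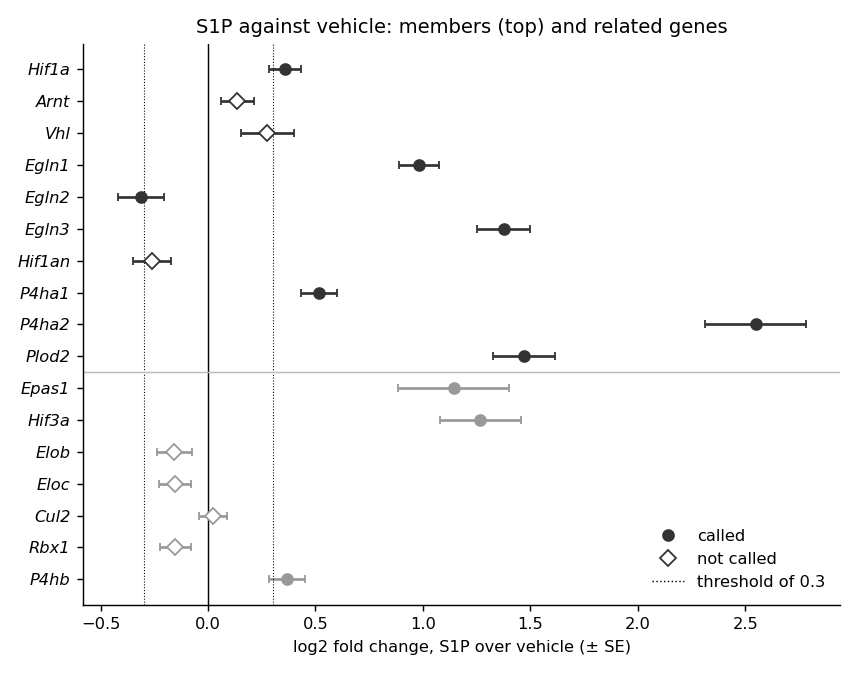
Log2 fold change of S1P over vehicle with its standard error from edgeR, for the 10 genes above the grey line and for 7 partners or relatives below it, where filled circles are called, open diamonds are not, and dotted lines mark 0.3 in either direction. The 3 collagen hydroxylases, Egln1 and Egln3 lie to the right of the threshold by more than their errors, Hif1a's error bar reaches it, Egln2 lies on the other side next to it, and the 4 ligase partners of VHL lie around 0.

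The 3 HIF prolyl hydroxylases did not move together. Egln3 (PHD3; chr12:54225767-54250673, ENSMUSG00000035105) was at 135, 157 and 106 CPM in vehicle replicates and at 376, 319 and 336 CPM in S1P replicates. The lowest S1P sample was 2.03-fold above the highest vehicle sample. The mean went from 133 ± 25.7 to 344 ± 29.6 CPM (SD, n = 3), 2.59-fold, with a log2 fold change of 1.38 (SE 0.12), the 194th highest of all tested genes.

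Egln1 encodes PHD2, the main oxygen sensor of most cells (chr8:125635308-125676865, ENSMUSG00000031987). It was at 120, 138 and 102 CPM in vehicle replicates and at 242, 236 and 232 CPM in S1P replicates. The S1P samples lay within 1.04-fold of each other, and the lowest was 1.68-fold above the highest vehicle sample. The mean went from 120 ± 17.7 to 237 ± 4.71 CPM (SD, n = 3), 1.97-fold, with a log2 fold change of 0.98 (SE 0.09).

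Egln2 (PHD1; chr7:26853588-26866408, ENSMUSG00000058709) was at 23.9, 24.8 and 30.3 CPM in vehicle replicates and at 21.4, 22.5 and 19.7 CPM in S1P replicates. The S1P samples were all below the vehicle samples, by a margin that was small beside the distance of vehicle replicate 3 from the other two. The log2 fold change was -0.31 (SE 0.11), just past the threshold of 0.3, while Hif1an at -0.26 and Vhl at 0.28 were just inside it. Egln2 was called lower in 5 of the 14 other fits, and without vehicle replicate 3 its log2 fold change was -0.20. Cyp2t4 on the opposite strand covers 20.8% of the exon bases of Egln2, and 21.2% of its stretches of 31 bases occur in other transcripts, so its counts are less certain than those of Egln1 and Egln3.

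Per kilobase, Egln3 was the leading transcript of the family in every sample. It made up 74.4% ± 2.12 of the summed Egln1, Egln2 and Egln3 RPKM in vehicle samples and 81.4% ± 1.14 in S1P samples (SD, n = 3). The share of Egln1 was 20.3% ± 0.53 and 16.9% ± 0.98, and that of Egln2 was 5.28% ± 1.60 and 1.74% ± 0.18. For each of these shares the 3 S1P samples lay on one side of the 3 vehicle samples. The summed level of the family was 66.7, 76.9 and 54.7 RPKM in vehicle replicates and 170, 148 and 153 RPKM in S1P replicates. Set against Hif1a in the same sample, the family stood at 1.09 ± 0.19 RPKM per RPKM of Hif1a in vehicle and at 2.03 ± 0.23 in S1P samples, so its transcripts differed by a larger factor than that of their substrate. With the length of the longest coding transcript in place of all exons, the share of Egln3 was 64.7% ± 2.69 and 73.7% ± 1.47, that of Egln1 was 27.1% ± 0.35 and 23.5% ± 1.22, and that of Egln2 was 8.16% ± 2.35 and 2.81% ± 0.28.

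**Figure D3:**
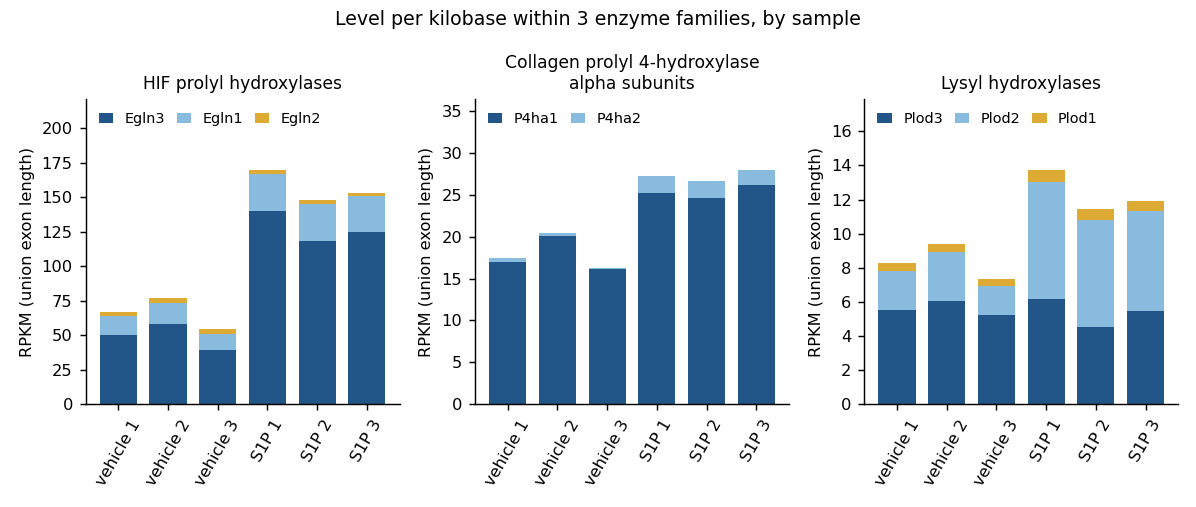
Stacked RPKM (level per kilobase of union exon) in each sample for the HIF prolyl hydroxylases, the collagen prolyl 4-hydroxylase alpha subunits and the lysyl hydroxylases. Egln3 fills most of each bar of its family, P4ha2 grows from 1.82% to 7.17% of its family, and Plod2 from 27.2% to 51.4%, while Plod3 lies between 4.55 and 6.16 RPKM in all 6 samples.

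Hif1an encodes FIH (chr19:44551286-44568723, ENSMUSG00000036450). It was at 50.2, 52.3 and 51.9 CPM in vehicle replicates and at 47.8, 37.9 and 42.6 CPM in S1P replicates. The vehicle samples were close together, and all 3 S1P samples were below them. The mean went from 51.5 ± 1.10 to 42.7 ± 4.93 CPM (SD, n = 3), with a log2 fold change of -0.26 (SE 0.09) that did not reach the threshold of 0.3 in size. It was called lower without S1P replicate 1, at -0.35, and when no minimum of fold change was set. Without S1P replicate 2 the log2 fold change was -0.18 and Hif1an was not called. Relative to Hif1a in the same sample, Hif1an was at 0.0748 ± 0.0035 RPKM per RPKM in vehicle and at 0.0488 ± 0.0077 in S1P samples (SD, n = 3), or at 0.112 ± 0.0053 and 0.0732 ± 0.012 with the length of the longest coding transcript.

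The 3 collagen hydroxylases among the 10 genes were all higher after S1P, and P4ha2 had the largest difference of the 10. Other collagen hydroxylases and partners did not rise as a set. Of 12 such genes 7 were tested, 1 was called higher (the partner P4hb) and 0 lower, with a median log2 fold change of 0.04. P4ha1 and P4ha2 are alternative catalytic subunits of collagen prolyl 4-hydroxylase, an enzyme of the endoplasmic reticulum that pairs them with protein disulfide isomerase (P4hb). P4ha2 (chr11:53981553-54022494, ENSMUSG00000018906) was at 3.98, 3.30 and 1.41 CPM in vehicle replicates, from 69, 45 and 22 counts. In S1P replicates it was at 17.7, 17.3 and 16.2 CPM, from 315, 197 and 206 counts. The lowest S1P sample was 4.07-fold above the highest vehicle sample. The mean went from 2.90 ± 1.33 to 17.1 ± 0.80 CPM (SD, n = 3), 5.89-fold, and the log2 fold change of 2.55 (SE 0.23) was the 25th highest of all tested genes.

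P4ha1 (chr10:59159092-59209126, ENSMUSG00000019916) was at 110, 130 and 105 CPM in vehicle replicates and at 163, 160 and 169 CPM in S1P replicates. The groups did not overlap, and the log2 fold change was 0.52 (SE 0.08). P4ha1 stayed the main alpha subunit: P4ha2 was 2.61%, 1.85% and 0.993% of the summed P4ha1 and P4ha2 RPKM in vehicle replicates and 7.46%, 7.43% and 6.62% in S1P replicates. With the length of the longest coding transcript these shares were larger, at 3.76% ± 1.65 in vehicle and 14.0% ± 0.86 in S1P samples (SD, n = 3). P4hb was at 517 ± 43.9 CPM in vehicle and 666 ± 51.5 CPM in S1P samples (SD, n = 3; log2 fold change 0.37, SE 0.08, adjusted p = 0.00808 by edgeR). That call was lost without vehicle replicate 3 (0.31, adjusted p = 0.0551), and 21.2% of the exon bases of P4hb lie under a gene of the opposite strand.

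Plod2 encodes a lysyl hydroxylase that acts on the telopeptides of collagen (chr9:92424119-92490494, ENSMUSG00000032374). It was at 14.8, 18.5 and 11.2 CPM in vehicle replicates and at 44.3, 40.2 and 37.8 CPM in S1P replicates. The lowest S1P sample was 2.05-fold above the highest vehicle sample. The mean went from 14.8 ± 3.65 to 40.8 ± 3.29 CPM (SD, n = 3), 2.75-fold, with a log2 fold change of 1.47 (SE 0.14). Its relatives were not called. Plod1 had a log2 fold change of 0.43 (SE 0.16), with every S1P sample above every vehicle sample, and missed on adjusted p (0.0681 by edgeR). Plod3 had a log2 fold change of -0.04 (SE 0.11), and its groups overlapped. Plod2 was 27.2% ± 3.48 of the summed Plod1, Plod2 and Plod3 RPKM in vehicle samples and 51.4% ± 2.85 in S1P samples.

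The collagen chains listed here, substrates of these enzymes, had few counts apart from Col15a1. Of 11 collagen chain genes, 10 did not pass the filter on low counts, and none of these 10 had more than 16 counts in any sample. Within these low counts, Col5a1 had 3, 2 and 0 in vehicle and 16, 7 and 8 in S1P replicates, Col4a1 had 0 in each vehicle sample and 5, 3 and 7 in S1P replicates, and Col3a1 had 0 in each vehicle sample and 1, 3 and 1 in S1P replicates. Col6a1 had 4, 2 and 6 in vehicle and 0, 2 and 1 in S1P replicates, and Col18a1 had 8, 4 and 10 against 3, 6 and 4. Every S1P library had more genes with a count (25235, 27224 and 24153 in replicates 1, 2 and 3) than any vehicle library (22639, 22566 and 23288). The part of that difference in these low counts was not tested. In CPM, every S1P sample was above every vehicle sample for 4 of the 10 chains (Col1a1, Col3a1, Col4a1 and Col5a1). None had all S1P samples below, and 6 overlapped. Of 13299 tested genes, 45.6% did not overlap, with all S1P samples above in 3055 and all below in 3004. The 10 chains did not pass the filter on low counts, so shares of tested genes are not their background. The one chain tested, Col15a1, was at 2.78 ± 0.71 CPM in vehicle and 2.84 ± 0.74 CPM in S1P samples (SD, n = 3). Serpinh1, the collagen chaperone, had 0 counts in 5 samples and 2 in S1P replicate 2. A list of 7 fibroblast markers summed to between 0.587 and 1.03 CPM in vehicle and between 1.52 and 2.28 CPM in S1P samples. The mean of that sum was 0.865 CPM in vehicle and 2.00 CPM in S1P samples. Of these 7 markers, 4 had at most 3 counts in every sample, and Dcn was at 0 in 5 samples. Pdgfrb, the one marker that was tested, had 11, 5 and 9 counts in vehicle and 14, 10 and 15 in S1P replicates (log2 fold change 0.80, SE 0.36, adjusted p = 0.122 by edgeR), and Col1a1 had 5, 1 and 5 against 8, 7 and 6. For both, every S1P sample was above every vehicle sample in CPM, and the part of such cells in the levels of P4ha1, P4ha2 and Plod2 was not tested.

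Among the 10 genes the order of level per kilobase in vehicle samples was Hif1a (60.7 ± 1.64 RPKM), Egln3 (49.3 ± 9.54), P4ha1 (17.7 ± 2.04), Egln1 (13.4 ± 1.98), Arnt (6.78 ± 0.54), Vhl (6.45 ± 0.56), Hif1an (4.53 ± 0.10), Egln2 (3.38 ± 0.44), Plod2 (2.30 ± 0.57) and P4ha2 (0.33 ± 0.15) (SD, n = 3). Arnt and Vhl were within 1 SD of each other, and the other neighbours were farther apart than that. In S1P samples Egln3 came first at 128 ± 11 RPKM, ahead of Hif1a at 77.7 ± 5.89. Egln1 (26.4 ± 0.53) and P4ha1 (25.3 ± 0.73) were next, and then Vhl (7.75 ± 1.39), Arnt (7.46 ± 0.37) and Plod2 (6.34 ± 0.51). Hif1an (3.76 ± 0.43), Egln2 (2.72 ± 0.18) and P4ha2 (1.95 ± 0.09) were last, so that Plod2 had passed Hif1an and Egln2. The S1P samples of Egln1 and P4ha1 overlapped on this scale, as did those of Vhl and Arnt. The order depends on the length used: per kilobase of the longest coding transcript, P4ha2 (6.58 ± 0.31 RPKM) was above Egln2 (4.85 ± 0.32) in S1P samples, and Vhl (10.4 ± 1.87) came after Arnt (14.6 ± 0.73) and Plod2 (10.95 ± 0.88).

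The vehicle samples differed among themselves in the same genes. All 6 genes called higher had their lowest vehicle level in replicate 3, and 4 of them (Egln1, Egln3, P4ha1 and Plod2) had their highest in replicate 2. Vehicle replicate 2 was above vehicle replicate 3 by 2.33-fold for P4ha2, 1.65-fold for Plod2, 1.48-fold for Egln3, 1.35-fold for Egln1 and 1.24-fold for P4ha1, and by 1.00-fold for Hif1a. Among 18 known HIF targets called higher, the lowest vehicle sample was replicate 3 for all 18 and the highest was replicate 2 for 17. Over all 1687 genes called higher, 49.6% were lowest in vehicle replicate 3 and 45.4% highest in vehicle replicate 2. The S1P samples were closer together for P4ha2 (highest over lowest 1.10-fold), P4ha1 (1.06-fold), Egln1 (1.04-fold), Plod2 (1.17-fold) and Egln3 (1.18-fold). For Hif1a they were farther apart, at 1.16-fold, beside vehicle samples between 497 and 522 CPM. Without vehicle replicate 3 the 6 genes were still called higher.

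**Figure D4:**
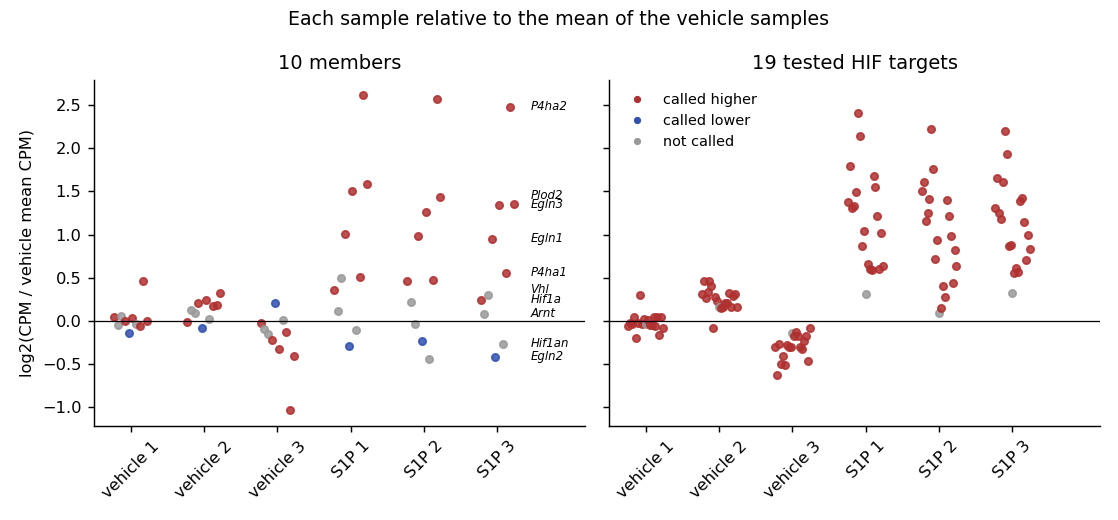
Each point is the log2 ratio of a gene's CPM in 1 sample to its mean CPM over the 3 vehicle samples, for the 10 genes and for 19 tested HIF targets, coloured by call. Genes called higher lie mostly above 0 in vehicle replicate 2 and below 0 in vehicle replicate 3, and the S1P samples lie above all 3.

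The other genes of the pathway were taken from 8 lists of 92 genes. These were written for function with earlier results of these data known, so their counts and adjusted p-values are read as a description only. Of the 92 genes 75 were tested, 32 called higher and 7 called lower (median log2 fold change 0.19), beside 12.7% and 10.4% of all tested genes. Of the other HIF subunits, both that were tested rose. Epas1 (HIF-2α) went from 2.55 ± 1.11 to 5.54 ± 0.27 CPM (log2 fold change 1.14, SE 0.26, adjusted p = 0.00695 by edgeR) and Hif3a from 3.05 ± 0.58 to 7.38 ± 0.97 CPM (1.27, SE 0.19, adjusted p = 0.000663; SD, n = 3). Both were rare transcripts: Hif1a was 153 ± 64.0-fold above Epas1 per kilobase in vehicle and 79.4 ± 9.08-fold above it in S1P samples.

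Of 12 other partners and regulators of HIF-1α, 1 was called higher and 1 lower. Cited2, which competes with HIF for p300 and CBP, rose with a log2 fold change of 0.44 (SE 0.09, adjusted p = 0.00414 by edgeR). Siah1b, of the SIAH family of ubiquitin ligases that act on EGLN proteins, fell with a log2 fold change of -0.52 (SE 0.13, adjusted p = 0.013), and that call was lost without vehicle replicate 1 (-0.49, adjusted p = 0.0571).

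Other dioxygenases that use oxygen and 2-oxoglutarate, or oxygen alone, had 9 of 20 genes higher and 2 lower, with a median log2 fold change of 0.17. The largest were 2 enzymes that oxidise methylcytosine, Tet1 (0.91, SE 0.11, adjusted p = 0.000243) and Tet2 (0.72, SE 0.09, adjusted p = 0.000222), and 2 histone demethylases, Kdm5b (0.60, SE 0.10, adjusted p = 0.000941) and Kdm4b (0.59, SE 0.12, adjusted p = 0.00481). Tet3, of the same family as Tet1 and Tet2, had a log2 fold change of -0.08 (SE 0.08) and was not called.

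The enzymes that make or use 2-oxoglutarate, succinate and fumarate, the cosubstrate and inhibitors of the hydroxylases, had the opposite balance, with 1 of 10 higher, 4 lower and a median of -0.27. Ogdh, of the 2-oxoglutarate dehydrogenase complex, fell (-0.43, SE 0.07, adjusted p = 0.000984), as did the succinate dehydrogenase subunit Sdhd (-0.44, SE 0.09, adjusted p = 0.0047) and its partner Sdhb (-0.42, SE 0.08). Idh1, the cytosolic enzyme that makes 2-oxoglutarate, rose (0.59, SE 0.16, adjusted p = 0.0176). That call was lost without vehicle replicate 3 (0.42, adjusted p = 0.0683) and without S1P replicate 3 (0.51, adjusted p = 0.0784).

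Of 20 known HIF targets, 19 were tested and 18 were called higher, with a median log2 fold change of 1.12. The largest were Ndrg1 (2.29, SE 0.17), Adm (1.94, SE 0.28), Bnip3 (1.69, SE 0.19) and Ddit4 (1.51, SE 0.17), with edgeR adjusted p-values of 1.27e-05, 0.000536, 0.000133 and 0.000122. Adm was at 0.70 ± 0.15 CPM in vehicle samples, 31.9% of its exon bases lie under a gene of the opposite strand, and 36.9% of the stretches of 31 bases of Bnip3 occur in other transcripts. Such limits also hold for 2 smaller calls. For Ankrd37, 81.4% of exon bases lie under the opposite-strand gene Ufsp2 and 67.2% of stretches are shared. For Pgk1, 53.4% of stretches are shared, and it was called in 11 of the 14 other fits and in 3 of the 6 that leave out 1 sample. Ldha, which makes lactate, was the one not called and had the lowest value (0.24, SE 0.10). Egln3, Plod2 and P4ha2 lay above the median of this list, and Egln1, P4ha1 and Hif1a below it.

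**Figure D5:**
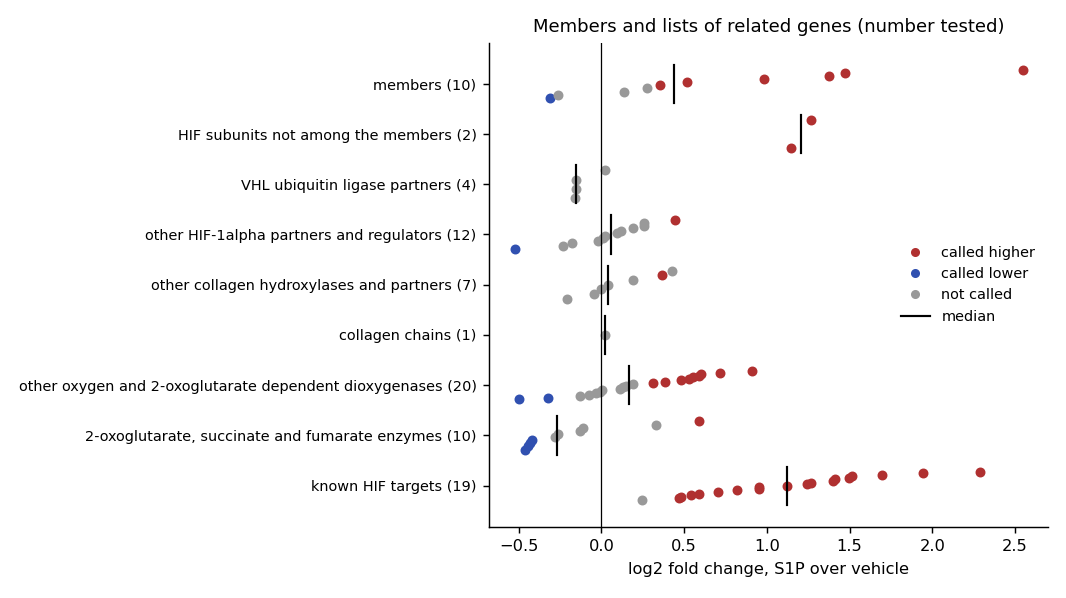
Log2 fold change of S1P over vehicle for each tested gene of the 10 and of the 8 lists, coloured by call, with a black line at each list's median and the number tested in brackets. The ligase partners of VHL sit around 0, the 2-oxoglutarate, succinate and fumarate enzymes lie mostly below it (median -0.27), and the HIF targets lie above it (median 1.12).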

How the data were processed

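The authors trimmed paired reads of stranded poly(A) libraries with Trim Galore, aligned them with STAR to GRCm39 (per the labels) and counted them per gene with featureCounts. Tool versions, the annotation release and the strand setting are not given in the sources used here. The deposited table holds raw counts without normalization for 6 samples, grouped by the sample titles. Symbols, positions and exon lengths came from GENCODE vM39, which holds 56323 of the 56941 identifiers.

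Counts were filtered with filterByExpr, scaled with TMM factors and fitted with treatment as the only term by the quasi-likelihood test of edgeR 4.0.16 (limma 3.58.1, R 4.3.3), after a test on simulated data. The common biological coefficient of variation was 0.0826. RPKM is the TMM-scaled CPM per kilobase of union exon.

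The 10 genes and all lists were chosen with earlier results of these data known. The text names the 10 genes, up to 4 called genes of each list by size of change, and Elob, Eloc, Cul2, Rbx1, P4hb and Epas1. Plod1, Plod3, Tet3, Sdhb, Ldha, Ero1a, Ankrd37, Pgk1, the collagen chains, Serpinh1 and the named cell markers were added after their values were seen. One gene that this rule names is not reported here. Other fits used DESeq2 1.42.0, other scalings and filters, the replicate number as a block, and 5 of the 6 samples.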

Additional observations from a re-analysis of the deposited data

How the results depend on the processing

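The 14 other fits gave 140 log2 fold changes for the 10 genes, of which 0 changed sign and 129 kept their side of the thresholds. Hif1a, Egln1, Egln3, P4ha1, P4ha2 and Plod2 were called higher in all 14, so the count of genes called higher was 6 in each except without S1P replicate 2, where Vhl made it 7. The count called lower, 1 as reported, was 0 with DESeq2, with upper-quartile factors, with at least 10 counts in every sample and with the replicate block, was 0 at the stricter limit of 0.01 on adjusted p, and was 2 with no minimum of fold change. It was between 0 and 1 without each sample in turn. Egln2 had a log2 fold change of -0.33 with DESeq2, -0.29 with upper-quartile factors and -0.31 with the stricter filter and with the replicate block. The cause was not tested.

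With the limit of 0.01, 1031 genes were higher and 826 lower, in place of 1687 and 1384. The 7 other pathway genes called lower became 4 without vehicle replicate 1, and between 4 and 8 without each sample in turn. Cul2 changed sign with total counts only (-0.0040), with no filter (-0.0066) and without vehicle replicate 1 (-0.0069), and was between -0.0069 and 0.055 without each sample in turn. No scaling moved the median log2 fold change by more than 0.03 in size.

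The replicate numbers are shared between the groups, but same-numbered samples did not all deviate together (correlations of 0.149, -0.0117 and 0.0627), and S1P replicates 1 and 3 correlated best with their own number while S1P replicate 2 did not. With the replicate block, 1697 genes were called higher and 1423 lower. With the longest coding transcript as length, vehicle RPKM was unchanged for Egln3 and higher for the other 9 genes, at 73.9 for Hif1a, 28.2 for P4ha1, 20.6 for Egln1 and 13.3 for Arnt. Counts limit P4ha2 most, with 22 in its lowest sample.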
